A study of Mus musculus with 6 samples.

Results

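The genes described here are those of glycolysis and pyruvate metabolism, a list of 41 symbols that was matched to the gene names of the deposited count table. All 41 were found among the 17512 genes of the table, and all 41 were among the 14773 genes that entered the test. RNA had been sequenced from 6 lines of primary mouse embryonic fibroblasts (pMEFs), which are connective-tissue cells grown out of mid-gestation embryos after removal of the internal organs. The 3 HAT1 WT lines (36, 47 and 78) carried intact Hat1, which encodes the acetyltransferase of histone H4 molecules that are not yet in chromatin, and the 3 HAT1 KO lines (33, 41 and 72) were labelled as knocked out for it. All lines were of the C57bl6 background, were grown in the same serum-containing medium and received no treatment, and the labels gave neither sex nor passage. Each line counted as 1 replicate, and each lane, line and genotype was taken from the sample labels.

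Glycolysis splits glucose into pyruvate in the cytosol. Glucose enters through facilitative transporters and is trapped as glucose 6-phosphate by hexokinases. Phosphofructokinase then commits it to breakdown, and the lower enzymes make ATP and pyruvate from the triose phosphates. Pyruvate is either reduced to lactate and exported, or carried into mitochondria and converted to acetyl-CoA by the pyruvate dehydrogenase complex, which the pyruvate dehydrogenase kinases switch off. Acetyl-CoA feeds the tricarboxylic acid cycle and is also the donor that histone acetyltransferases such as HAT1 use. The pentose phosphate pathway branches off at glucose 6-phosphate and supplies NADPH and ribose. Fibroblasts in culture run glycolysis at a high rate even with oxygen present, and several steps have isozymes that differ between tissues.

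Totals lay between 67720628 and 98786746 counts per library, so that each member had between 91 and 171341 counts in a library. The targeted gene was lower in every KO line. Hat1 (chromosome 2, 71388958 to 71441622, GRCm38) was at 17.4, 23.0 and 20.1 CPM (counts scaled to library size) in WT lines 36, 47 and 78 and at 10.2, 10.0 and 10.3 CPM in KO lines 33, 41 and 72, so the KO mean was 50.4% of the WT mean. Its log2 fold change was -0.99 with a standard error (SE) of 0.12, at an adjusted p of 0.0376 in edgeR's quasi-likelihood test with Benjamini-Hochberg adjustment. Leaving out a line moved that adjusted p to between 0.0587 and 0.230, with the direction kept. Counts per gene do not show from which exons the remaining reads came. Fibroblast markers were high in every line, with 10 of 10 tested and a sum of 57738 to 89814 CPM. Markers of macrophages were present as well, at 5175 to 5718 CPM over 14 genes in the WT lines and 2515 to 3121 CPM in the KO lines. Of these 14 genes, 13 were lower in HAT1 KO at an unadjusted p under 0.05, and 8 of them (Cd53, Tyrobp, Itgam, Csf1r, Ptprc, Lyz2, Fcer1g and Adgre1) at an adjusted p under 0.05. In RNA from whole cultures, fewer cells of a type and less RNA per cell cannot be told apart. KO line 72 stood apart from the rest, with a mean Pearson correlation to the other lines of 0.971 against 0.983 to 0.987 for the others, over the log2 CPM of the tested genes. The lane was 8 for WT line 36, 6 for WT line 47 and KO lines 33 and 72, and 7 for WT line 78 and KO line 41. Y-linked genes had 13788 and 12841 counts in WT lines 36 and 47, but 231 in WT line 78 and 4 to 8 in the KO lines.

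Across the pathway, the differences between genotypes were small. The abundant enzymes of lower glycolysis were on average somewhat higher in HAT1 KO, and 3 less abundant isozymes, Hk3, Aldoc and Pfkfb4, were lower. None of the 41 members passed an adjusted p of 0.05 in edgeR, where 0.528% of all tested genes did, and the smallest adjusted p of a member was 0.172. Without adjustment, 3 members were lower in HAT1 KO at p under 0.05, which is 7.32% of the members against 8.77% of all tested genes. A single member, Ldha, was higher at that threshold, 2.44% of the members against 5.88% of all tested genes. With a change of at least 1.5-fold required in addition, the study's thresholds, Hk3 and Aldoc remained on the lower side (4.88% against 4.62%), and 0 members were on the higher side, where 1.5% of all tested genes were. These shares were near to or under those of all genes, so the counts alone do not set the pathway apart.

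The direction of the differences was uneven. A positive log2 fold change, that is a higher fitted level in HAT1 KO, was found for 29 members and a negative one for 12, so that 70.7% of the members were positive against 51.5% of all tested genes. Under the 15 alternative settings, 25 to 32 members were positive. Fold changes lay between -0.74 for Aldoc and 0.49 for Slc2a3 on the log2 scale. The median over the members was 0.08, beside 0.01 over all tested genes. Among the 14 members with a mean above 100 CPM, 12 were positive, with a median log2 fold change of 0.16. Of all 2011 tested genes above that level, 55.5% were positive and the median was 0.03. No overlap between the 3 WT and the 3 KO lines was found for 4 lower members (Hk3, Aldoc, Pfkfb2 and Pfkfb4), 9.76% against 12.4% of all tested genes, and for 5 higher members (Gapdh, Ldha, Pdha1, Dlat and Dld), 12.2% against 9.59%. Members share the same 6 libraries and are not independent, so no test was made over the list.

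**Figure D1:**
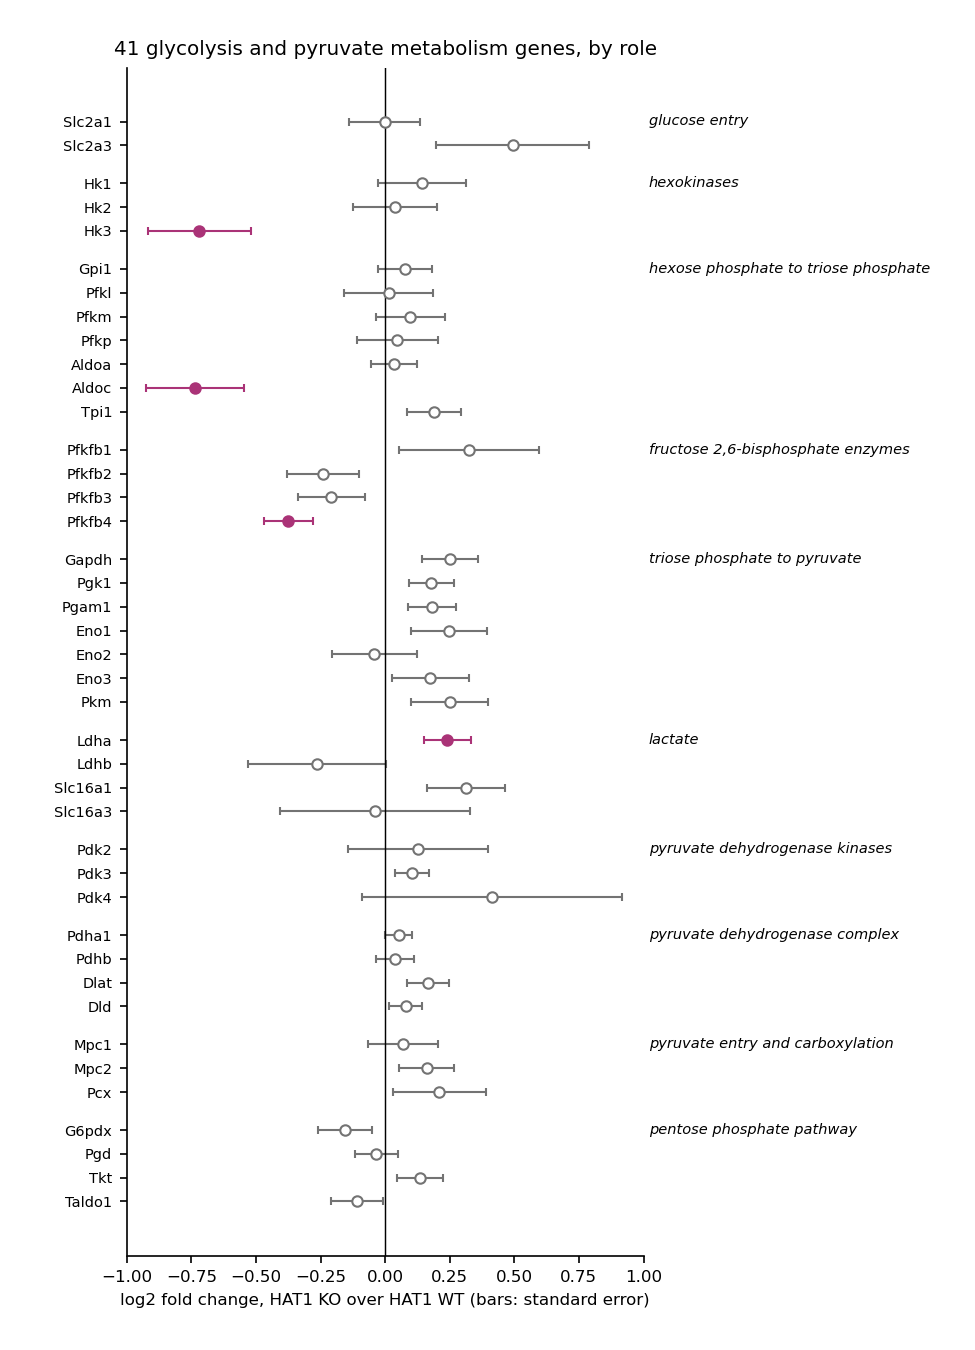
Log2 fold change of HAT1 KO over HAT1 WT for the 41 genes, grouped by role (names at right). Points are edgeR estimates from 3 lines per genotype, bars are the approximate standard error, and filled points have an unadjusted p under 0.05. Hk3 (-0.72), Aldoc (-0.74) and Pfkfb4 (-0.37) lie to the left of 0 and Ldha (0.24) to the right, and 6 of 7 genes from triose phosphate to pyruvate lie to the right without passing that threshold.

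The promoters of the 4 members with an unadjusted p under 0.05 are shown, a choice made by that threshold alone. None of the 4 passed an adjusted p of 0.05 in edgeR. Sequences are from RefSeq on GRCm38.p6, which had a promoter for 40 of the 41 members (not for Slc2a3), and the first annotated start is used where a gene has several. Each is the part of the 250 bases before the transcription start that lies outside annotated exons of the gene, read 5′ to 3′ on the gene's strand. Capitals mark ACGTG on either strand, the core to which hypoxia-inducible factors bind, which is also contained on both strands in CACGTG, the E-box recognised by Myc. The windows are chr13:55021386-55021635 (minus strand) for Hk3, chr11:78322823-78322967 (plus strand) for Aldoc, chr9:108991652-108991777 (plus strand) for Pfkfb4 and chr7:46845554-46845803 (plus strand) for Ldha.
Hk3: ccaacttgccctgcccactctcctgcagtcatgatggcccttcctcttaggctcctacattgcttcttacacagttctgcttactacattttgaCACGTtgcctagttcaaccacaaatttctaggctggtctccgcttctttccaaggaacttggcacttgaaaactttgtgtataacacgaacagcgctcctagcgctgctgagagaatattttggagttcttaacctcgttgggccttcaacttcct
Aldoc: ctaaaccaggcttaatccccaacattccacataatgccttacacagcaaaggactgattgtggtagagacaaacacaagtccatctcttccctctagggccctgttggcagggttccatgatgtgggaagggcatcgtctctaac
Pfkfb4: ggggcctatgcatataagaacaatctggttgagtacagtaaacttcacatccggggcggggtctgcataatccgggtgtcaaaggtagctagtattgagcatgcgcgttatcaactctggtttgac
Ldha: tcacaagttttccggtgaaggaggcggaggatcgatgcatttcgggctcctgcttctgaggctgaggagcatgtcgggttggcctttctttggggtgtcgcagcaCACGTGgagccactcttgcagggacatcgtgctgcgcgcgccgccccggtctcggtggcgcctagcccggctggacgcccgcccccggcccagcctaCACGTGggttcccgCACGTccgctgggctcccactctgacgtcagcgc
The Ldha window holds 2 copies of CACGTG and 1 further ACGTG, the Hk3 window holds 1 ACGTG whose first base lies 156 bases before the start, and neither motif is in the stretches of Aldoc and Pfkfb4. Over all RefSeq promoters, ACGTG was present in 16.6% of 32851 windows of 250 bases, against 34.4% of the 61 windows of the members. GCGTG, the other form of the core, was present in 28.2% of all windows and in 52.5% of the members' windows, and CACGTG in 6.02% and 11.5%. The full windows of Aldoc and Pfkfb4 held 1 GCGTG each, outside the printed stretches, and those of Hk3 and Ldha held 0. Windows of 1 gene can overlap, and these matches describe letters only.

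Glucose entry did not differ between the genotypes beyond the spread of the lines. Slc2a1 (GLUT1), the main glucose transporter of cultured fibroblasts, was at 82.2, 77.0 and 75.6 CPM in WT lines 36, 47 and 78 and at 93.3, 76.9 and 64.3 CPM in KO lines 33, 41 and 72. The KO lines enclosed the WT lines. For Slc2a1 the log2 fold change was -0.00 (SE 0.14, unadjusted p of 0.990, edgeR adjusted p = 0.997). Slc2a3 (GLUT3), a transporter of high affinity best known from neurons, was at 4.14, 3.04 and 2.73 CPM in the WT lines and 5.04, 3.02 and 5.89 CPM in the KO lines. Its fitted difference was the highest of the 41 at 0.49 on the log2 scale, but with an SE of 0.30 (unadjusted p of 0.144, edgeR adjusted p = 0.495), and KO line 41 lay within the WT range. Divided by exon length, Slc2a1 made up 98.0% ± 0.34 of the summed level of both transporters in HAT1 WT and 97.1% ± 1.22 in HAT1 KO (SD, n = 3 each).

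Hk3 was the hexokinase that differed. HK3 is the isozyme of the hexokinase family that is best known from myeloid cells. Its gene (chromosome 13, 55005985 to 55021385, minus strand) was at 29.1, 31.7 and 37.4 CPM in WT lines 36, 47 and 78 and at 25.4, 18.9 and 15.5 CPM in KO lines 33, 41 and 72, from 1192 to 3705 counts. Every KO line was below every WT line, and KO line 72 was the lowest. The means were 32.8 ± 4.25 CPM in HAT1 WT and 19.9 ± 5.06 CPM in HAT1 KO (SD, n = 3 each), with a log2 fold change of -0.72 and an SE of 0.20. The unadjusted p was 0.0102 and the adjusted p 0.201 in edgeR's quasi-likelihood test. Within lane 6 the log2 difference was -0.68 and within lane 7 it was -0.99. Since the genotypes did not overlap, both signs were fixed in advance. The summed macrophage markers were lower in the same lines, as given above, and their part in the Hk3 result was not tested. Exons of Hk3 overlap those of Unc5a, and the library kit did not mark strand.

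Hk1, the widely expressed mitochondrial hexokinase, was at 130.0, 113 and 119 CPM in the WT lines and at 118, 112 and 171 CPM in KO lines 33, 41 and 72. KO line 72 was the highest of the 6 lines and the other KO lines were within or just below the WT range. Its log2 fold change of 0.14 (SE 0.17, unadjusted p of 0.433, edgeR adjusted p = 0.746) turned negative without KO line 72. Hk2, the isozyme induced by growth signals and hypoxia, ranged from 49.8 to 79.1 CPM in WT and from 64.9 to 68.3 CPM in KO, with a log2 fold change of 0.04. By length-scaled level, Hk1 held 41.6% ± 1.48 of the family in HAT1 WT and 48.1% ± 7.15 in HAT1 KO. The share of Hk3 was 21.7%, 26.0% and 31.3% in WT lines 36, 47 and 78 and 21.5%, 17.6% and 11.8% in KO lines 33, 41 and 72. KO line 33 lay just below WT line 36, so that the shares did not overlap but nearly met.

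**Figure D2:**
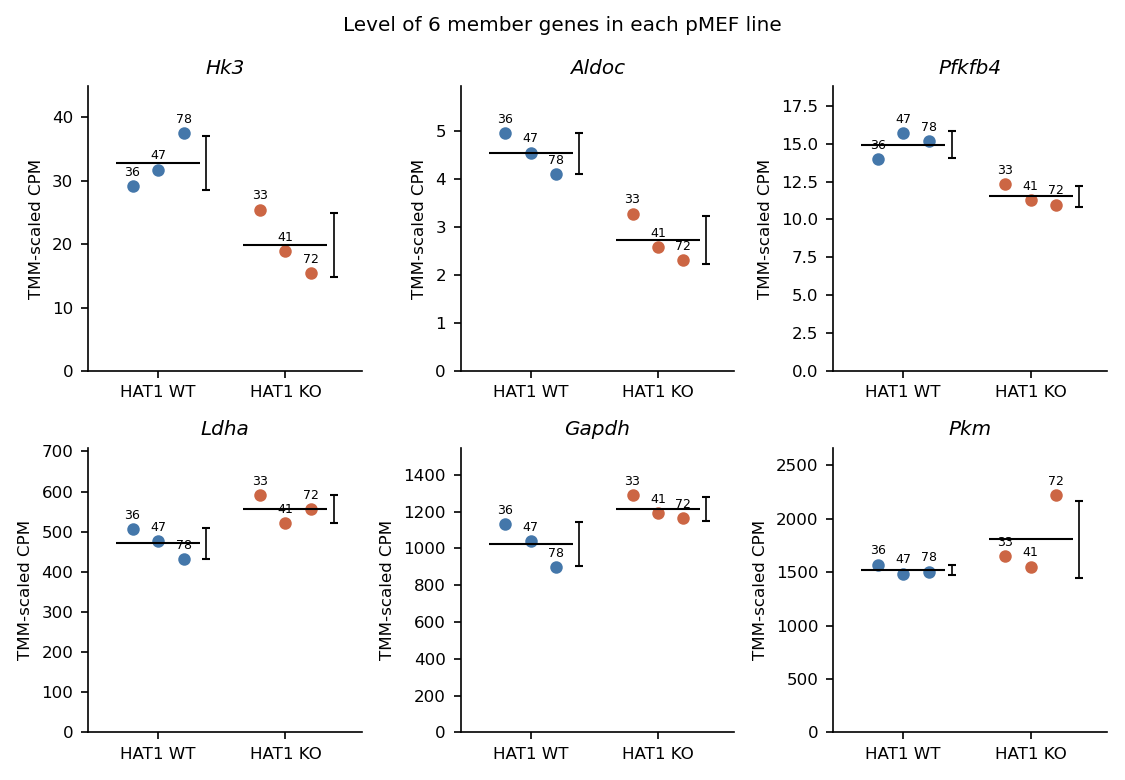
TMM-scaled CPM of 6 members in each of the 6 lines (numbers beside the points), with the mean as a line and the SD as a bar at the side, n = 3 lines per genotype. Every KO line lies below every WT line for Hk3, Aldoc and Pfkfb4 and above every WT line for Ldha and Gapdh, and for Pkm KO line 72 lies far above the other lines.

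From glucose 6-phosphate to the triose phosphates, 6 of 7 genes were positive, but the 1 that passed the unadjusted threshold was lower. Aldoa, the aldolase of muscle and most other cells, was at 760.0, 678 and 664 CPM in WT lines 36, 47 and 78 and at 767, 705 and 681 CPM in KO lines 33, 41 and 72. The ranges were nearly the same, and the log2 fold change was 0.03 (SE 0.09, unadjusted p of 0.717, edgeR adjusted p = 0.893). Aldoc, the aldolase of brain, was at 4.95, 4.55 and 4.10 CPM in the WT lines and at 3.28, 2.57 and 2.31 CPM in the KO lines, from 174 to 406 counts. All 3 KO lines were below all 3 WT lines. Its means of 4.53 ± 0.42 and 2.72 ± 0.50 CPM (SD, n = 3 each) gave a log2 fold change of -0.74 with an SE of 0.19. For Aldoc the unadjusted p was 0.0074 and the adjusted p 0.183 in edgeR. The log2 difference of Aldoc was -0.72 within lane 6 and -0.67 within lane 7, with signs fixed by the lack of overlap. Its unadjusted p in edgeR became 0.0528 with the lane in the model and 0.0756 with Y-linked expression in the model. The share of Aldoc in both aldolases by length-scaled level was 0.55% to 0.59% in the WT lines and 0.30% to 0.38% in the KO lines, so Aldoa made up 99.4% to 99.7% in every line. The sum of 5 neuron markers was 65.8 to 74.1 CPM in WT and 122.8, 73.7 and 233.7 CPM in KO lines 33, 41 and 72, so KO line 41 lay within the WT range. Map2 and Tubb3 made up most of this sum in every line, Syp was at 0.335 to 0.667 CPM and Syt1 was at 0 counts in KO line 72. The part of neuron markers in the difference in Aldoc was not tested.

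The other 5 genes of these steps had overlapping genotypes. Gpi1, which interconverts glucose 6-phosphate and fructose 6-phosphate, had a log2 fold change of 0.08, and Tpi1, which equilibrates the triose phosphates, one of 0.19 with an SE of 0.10 (unadjusted p of 0.115, edgeR adjusted p = 0.460). The phosphofructokinase subunits Pfkl (liver type), Pfkm (muscle type) and Pfkp (platelet type) had log2 fold changes of 0.01, 0.10 and 0.05. Pfkl held 51.0%, 49.1% and 51.4% of the length-scaled level of the 3 subunits in the WT lines and 56.4%, 50.03% and 40.6% in KO lines 33, 41 and 72. The share of Pfkm was 48.4% in KO line 72, against 31.5% to 39.9% in the other lines. The balance of the subunits therefore differed most between single KO lines, not between the genotypes.

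The bifunctional enzymes that make and break fructose 2,6-bisphosphate, the strongest activator of phosphofructokinase, were the role group with the lowest ratio of HAT1 KO to HAT1 WT. The 4 genes together were at 63.0, 60.0 and 56.0 CPM in WT lines 36, 47 and 78 and at 51.4, 53.9 and 46.5 CPM in KO lines 33, 41 and 72, a ratio of means of 0.848. Every KO line was below every WT line. Pfkfb3, the isozyme with the highest kinase activity relative to its phosphatase activity, was at 41.9, 36.8 and 32.5 CPM in WT and 31.6, 36.1 and 28.5 CPM in KO, with overlap. The log2 fold change of Pfkfb3 was -0.21 (SE 0.13, unadjusted p of 0.154, edgeR adjusted p = 0.508). Pfkfb4, a hypoxia-inducible isozyme, was at 13.96, 15.7 and 15.2 CPM in the WT lines and at 12.3, 11.3 and 11.0 CPM in the KO lines, which did not overlap. The means of Pfkfb4 were 14.9 ± 0.88 and 11.5 ± 0.70 CPM (SD, n = 3 each), and the log2 fold change was -0.37 with an SE of 0.09. With an unadjusted p of 0.0065 and an adjusted p of 0.172 in edgeR, Pfkfb4 had the smallest p of the 41 members. Within lanes 6 and 7 the log2 difference of Pfkfb4 was -0.43 in each, with the sign fixed by the lack of overlap. Pfkfb2, the heart isozyme, was at 5.63 to 7.31 CPM in WT and 5.15 to 5.48 CPM in KO (log2 fold change -0.24, SE 0.14). Pfkfb1, the liver isozyme, had 91 to 176 counts per library and a log2 fold change of 0.32 with an SE of 0.27.

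From triose phosphate to pyruvate, the ATP-yielding part of the pathway, 6 of 7 genes were positive and 0 passed the unadjusted threshold. These 7 genes together were at 4116, 3840 and 3475 CPM in WT lines 36, 47 and 78 and at 4481, 4283 and 4739 CPM in KO lines 33, 41 and 72. All KO lines were above all WT lines, with a ratio of means of 1.18. For KO line 72 this rested on Pkm, without which its sum would lie below that of WT line 36. Pkm, the pyruvate kinase of most tissues other than liver and red cells, had the highest level of all members per exon length. It was at 1569, 1484 and 1505 CPM in the WT lines and at 1650, 1549 and 2221 CPM in KO lines 33, 41 and 72, so KO line 72 stood out and KO line 41 lay within the WT range. The log2 fold change of Pkm was 0.25 (SE 0.15, unadjusted p of 0.143, edgeR adjusted p = 0.493), and 0.09 without KO line 72. Gapdh, which oxidises glyceraldehyde 3-phosphate, was at 1133, 1038.5 and 897 CPM in the WT lines and at 1291, 1192 and 1166 CPM in the KO lines. Every KO line was above every WT line, by a narrow margin between KO line 72 and WT line 36. With means of 1023 ± 119 and 1216 ± 65.8 CPM (SD, n = 3 each), the log2 fold change of Gapdh was 0.25 with an SE of 0.11. The unadjusted p of Gapdh was 0.0593 and its adjusted p 0.363 in edgeR, and 5 of 15 alternatives gave an unadjusted p under 0.05. Gapdh is often used as a loading control, and here its level varied 1.26-fold among the WT lines alone.

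Pgk1, the first ATP-yielding enzyme, Pgam1, the mutase that follows it, and Eno1, the general enolase, had log2 fold changes of 0.18 (SE 0.09), 0.18 (SE 0.09) and 0.25 (SE 0.15). In all 3 genes WT line 78 was the lowest line, at 289, 115 and 653 CPM, and the genotypes overlapped. Their adjusted p in edgeR was 0.414, 0.440 and 0.492. Eno3, the muscle enolase, was at 5.99 to 8.02 CPM in WT and 7.03 to 8.16 CPM in KO. Eno2, the enolase of neurons, was at 8.60 to 11.1 CPM in WT and 7.80 to 10.9 CPM in KO, with a log2 fold change of -0.04. Eno1 held 95.6% to 96.7% of the length-scaled level of the enolases in every line. Several of these genes share transcript sequence with other annotated genes. Of all 50-base stretches in their transcripts, 53.9% were shared with another gene's transcript for Pgk1, 36.2% for Pgam1, 26.0% for Eno1, 25.8% for Pkm and 24.7% for Gapdh. How reads from such stretches were assigned was not stated, so these counts are uncertain to that extent.

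Ldha was the 1 member that was higher in HAT1 KO at an unadjusted p under 0.05. It encodes the lactate dehydrogenase subunit that favours the reduction of pyruvate to lactate. Ldha (chromosome 7, 46841475 to 46855627, plus strand) was at 506, 476 and 431 CPM in WT lines 36, 47 and 78 and at 592, 521.5 and 556 CPM in KO lines 33, 41 and 72. KO line 41, the lowest of its genotype, was above WT line 36, the highest of the other. The means were 471 ± 37.8 and 556 ± 35.1 CPM (SD, n = 3 each), and the log2 fold change was 0.24 with an SE of 0.09. In edgeR the unadjusted p was 0.0366 and the adjusted p 0.308. The log2 difference of Ldha was 0.27 within lane 6 and 0.28 within lane 7, with the sign fixed by the lack of overlap. Its unadjusted p became 0.111 without KO line 33, 0.0759 without WT line 47, 0.0901 without WT line 78, 0.0523 with the lane in the model and 0.0520 with voom, at log2 fold changes of 0.19 to 0.27. Ldhb, the subunit of heart that favours the reverse reaction, was at 12.6 to 19.9 CPM in WT and at 11.5, 19.2 and 11.3 CPM in KO lines 33, 41 and 72, with a log2 fold change of -0.26 and an SE of 0.27. Ldha accounted for 93.1% ± 0.99 of the length-scaled level of both subunits in HAT1 WT and for 94.9% ± 1.84 in HAT1 KO (SD, n = 3 each), with overlap.

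The lactate exporters did not move together. Slc16a1 (MCT1), which carries lactate in either direction, was at 29.8, 31.2 and 34.7 CPM in WT lines 36, 47 and 78 and at 45.3, 42.4 and 31.2 CPM in KO lines 33, 41 and 72. KO lines 33 and 41 were above all WT lines, and KO line 72 was within their range. Its log2 fold change was 0.31 (SE 0.15, unadjusted p of 0.0801, edgeR adjusted p = 0.407) and became 0.47 without KO line 72, at an unadjusted p of 0.0025 and an adjusted p of 0.107. Slc16a3 (MCT4), the exporter of strongly glycolytic cells, was at 51.6, 45.9 and 35.2 CPM in WT and at 64.8, 41.3 and 22.9 CPM in KO lines 33, 41 and 72. The KO lines spanned a 2.84-fold range on both sides of the WT lines, and the log2 fold change was -0.04 with an SE of 0.37. The share of Slc16a1 in both exporters by length-scaled level ran from 40.95% to 54.3% in WT and from 45.7% to 62.1% in KO.

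**Figure D3:**
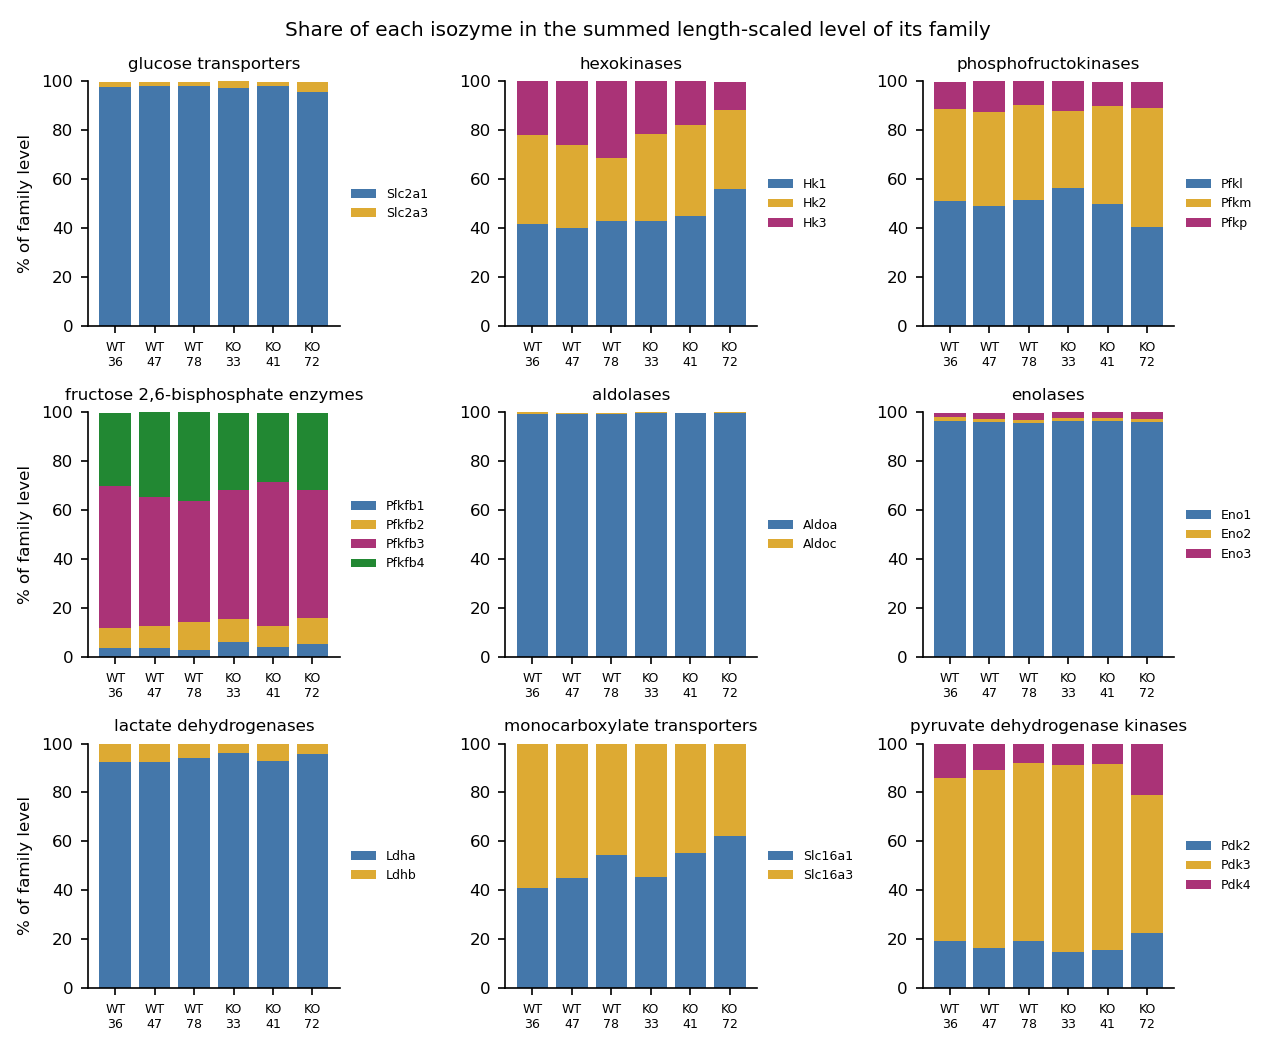
Share of each isozyme in the summed length-scaled level (CPM per kilobase of exon) of its family, in percent, as stacked bars for each of the 6 lines and 9 families. Families hold members only, so Pdk1 is not among the pyruvate dehydrogenase kinases. Aldoa, Eno1, Slc2a1 and Ldha make up over 90% of their families in every line, Hk3 takes 11.8% to 21.5% of the hexokinases in the KO lines and 21.7% to 31.3% in the WT lines, and KO line 72 has the largest share of Pfkm and Pdk4.

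At the mitochondrial end, the genes of the pyruvate dehydrogenase complex varied little between lines. The 4 subunit genes among the members summed to 342, 335 and 334 CPM in WT lines 36, 47 and 78 and to 350.3, 349.6 and 372 CPM in KO lines 33, 41 and 72. All KO lines were above all WT lines, by a ratio of means of 1.06. Pdha1, the catalytic subunit that the kinases phosphorylate, was at 146, 148 and 143 CPM in WT and 151, 150.04 and 153 CPM in KO. The genotypes did not overlap, but the log2 fold change was 0.05 (SE 0.05, unadjusted p of 0.368, edgeR adjusted p = 0.704). Dlat, the acetyltransferase core that forms acetyl-CoA, was at 87.1, 83.6 and 80.6 CPM in WT and 88.6, 89.4 and 104.0 CPM in KO lines 33, 41 and 72. Every KO line was above every WT line, KO line 72 by far. Its log2 fold change was 0.17 (SE 0.08, unadjusted p of 0.0877, edgeR adjusted p = 0.419). Dld, the shared dehydrogenase subunit, had a log2 fold change of 0.08 and Pdhb, the other subunit of the first enzyme, one of 0.04. Pdhx, a further gene of the complex outside the member list, had a log2 fold change of 0.14 (SE 0.09), with overlap.

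The pyruvate dehydrogenase kinases, which shut the complex off, differed between single KO lines. Pdk3 had the highest level of the 3 and was at 41.01, 38.5 and 39.7 CPM in WT and 44.3, 43.6 and 40.4 CPM in KO, with a log2 fold change of 0.11 (SE 0.07, unadjusted p of 0.157, edgeR adjusted p = 0.511). KO line 72 was within the WT range. Pdk4, a kinase induced by fasting and fatty acids, was at 11.9, 7.86 and 5.92 CPM in WT and at 7.09, 6.66 and 20.5 CPM in KO lines 33, 41 and 72. Pdk2 was at 10.7 to 14.7 CPM in WT and at 10.7, 11.2 and 20.1 CPM in the same KO lines. In both genes KO line 72 was the highest line and the other KO lines were within the WT range. The log2 fold changes of 0.41 (SE 0.50) for Pdk4 and 0.13 (SE 0.27) for Pdk2 turned negative without KO line 72. Pdk1, a kinase gene outside the member list, was at 38.4, 31.9 and 36.4 CPM in WT lines 36, 47 and 78. In KO lines 33, 41 and 72 Pdk1 was at 38.8, 36.9 and 22.4 CPM, so KO line 72 was its lowest line (log2 fold change -0.12, SE 0.21).

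For pyruvate entry and carboxylation, all 3 genes were positive and overlapped. Pcx, which carboxylates pyruvate to oxaloacetate, was at 18.2, 15.4 and 17.7 CPM in WT and 18.5, 15.9 and 25.0 CPM in KO lines 33, 41 and 72 (log2 fold change 0.21, SE 0.18, unadjusted p of 0.286, edgeR adjusted p = 0.639). Mpc2, a subunit of the mitochondrial pyruvate carrier, was at 21.7, 18.9 and 17.3 CPM in WT and 21.9, 22.6 and 20.3 CPM in KO (log2 fold change 0.16, SE 0.11, unadjusted p of 0.180, edgeR adjusted p = 0.539). Its partner Mpc1 was at 4.19 to 5.02 CPM over all lines. In Pcx, KO line 72 was the highest line, and in Mpc2, WT line 78 was the lowest. The log2 fold change of Pcx was 0.02 without KO line 72, that of Mpc2 was 0.10 without WT line 78, and that of Mpc1 went from 0.07 to -0.00 without KO line 41.

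The summed level of the pentose phosphate pathway was nearly the same in both genotypes, at 532, 539.9 and 551 CPM in WT and 557, 493 and 559 CPM in KO lines 33, 41 and 72. Taldo1 (transaldolase), the highest of the 4 per length, was at 122, 119 and 129.5 CPM in WT and 103, 109 and 131 CPM in KO, with a log2 fold change of -0.11 (SE 0.10, unadjusted p of 0.321, edgeR adjusted p = 0.668). Tkt (transketolase) was at 163, 172 and 159.9 CPM in WT and 199, 162 and 182 CPM in KO, with a log2 fold change of 0.13 (SE 0.09, unadjusted p of 0.181, edgeR adjusted p = 0.539). In both genes the KO lines spread wider than the WT lines. G6pdx, the NADPH-forming entry enzyme, had a log2 fold change of -0.16 (SE 0.10) and Pgd, the other NADPH-forming enzyme, one of -0.03 (SE 0.08).

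The 16 enzymes from glucose 6-phosphate to lactate were also summed, because they act in sequence. Their sum was 6135, 5646 and 5163 CPM in WT lines 36, 47 and 78 and 6597, 6220 and 6651 CPM in KO lines 33, 41 and 72. The KO lines were all above the WT lines, and the ratio of the means of 6490 ± 235 and 5648 ± 486 CPM (SD, n = 3 each) was 1.15. KO line 41 exceeded WT line 36 by less than the SD of either genotype. Without Pkm, the sum of KO line 72 would lie below that of WT line 36. With 3 lines against 3, an exact two-sided permutation test cannot give a p under 0.1, and since the members were chosen with results known, no p is given. Of the 16 genes, 13 were positive with a median log2 fold change of 0.14, and Aldoc, Eno2 and Ldhb were negative. Of the other 25 members, 16 were positive, with a median of 0.07. The 12 proliferation markers were also higher in sum in every KO line, at 534, 800.4 and 564 CPM in WT lines 36, 47 and 78 and 1115, 942 and 825 CPM in KO lines 33, 41 and 72. The margin between KO line 72 and WT line 47 was narrow. All 12 were positive, against 51.5% of all tested genes. In edgeR 9 were higher at an unadjusted p under 0.05, against 5.88% of all tested genes, with Rrm2 (log2 fold change 0.96) and Mcm5 (0.65) at the smallest p. For 4 of the 12 every KO line was above every WT line, against 9.59% of all tested genes. The part of the proliferation markers in the level of the glycolytic enzymes was not tested.

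**Figure D4:**
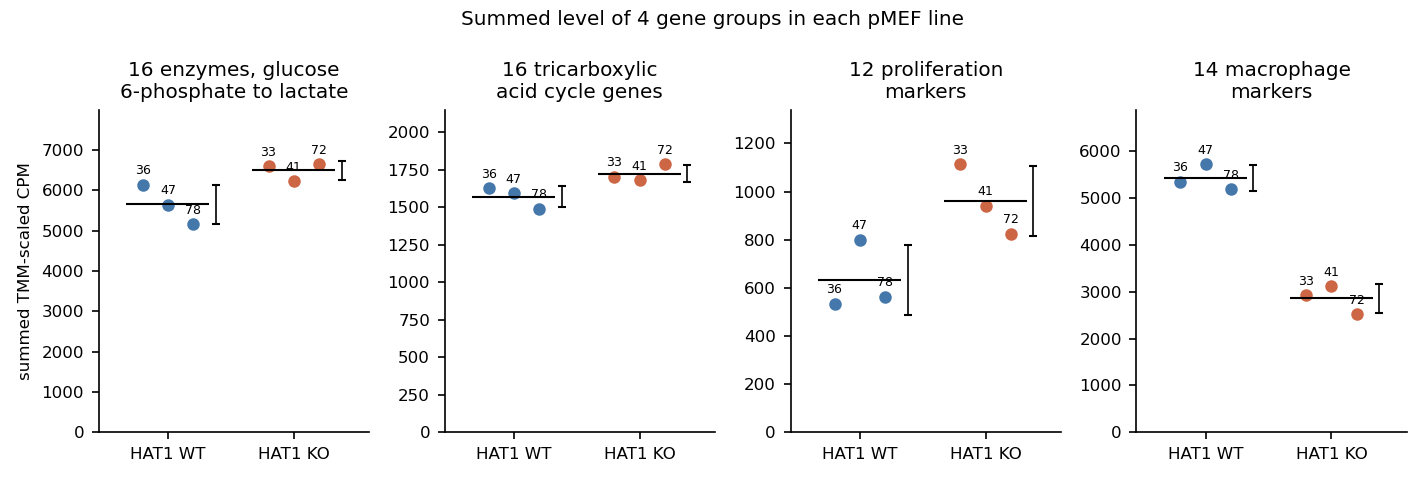
Summed TMM-scaled CPM of 4 gene groups in each line (numbers beside the points), with the mean as a line and the SD as a bar at the side, n = 3 lines per genotype. The 16 enzymes from glucose 6-phosphate to lactate, the tricarboxylic acid cycle genes and the proliferation markers are higher in every KO line than in any WT line. The macrophage markers (5175 to 5718 against 2515 to 3121 CPM) are lower. For the 16 enzymes, KO line 72 would lie below WT line 36 without Pkm.

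Neighbouring genes of the same pathways were counted in the same fit. Of 41 other genes of glucose and pyruvate metabolism, 36 were in the table and 29 were tested, with a median log2 fold change of 0.00. Of these 29, 1 was lower and 2 were higher at an unadjusted p under 0.05, and none passed an adjusted p of 0.05. Of all tested genes, 8.77% were lower and 5.88% were higher at an unadjusted p under 0.05. Prps1, which makes phosphoribosyl pyrophosphate for nucleotide synthesis, was at 14.9, 13.9 and 14.6 CPM in WT and 20.5, 21.7 and 22.5 CPM in KO. The groups of Prps1 were well apart, with a log2 fold change of 0.58 (SE 0.08, edgeR adjusted p = 0.0502). Slc16a7 (MCT2), a pyruvate and lactate carrier, was at 7.90, 7.30 and 8.53 CPM in WT and 5.09, 4.35 and 5.13 CPM in KO, with a log2 fold change of -0.70 (SE 0.13, edgeR adjusted p = 0.0942). Of 16 genes of the tricarboxylic acid cycle, all 16 were positive with a median log2 fold change of 0.12, and 4 were higher at an unadjusted p under 0.05. The smallest p belonged to Fh1 (fumarase, log2 fold change 0.24, SE 0.05, edgeR adjusted p = 0.135) and Idh3a (a subunit of isocitrate dehydrogenase, 0.25, SE 0.07, edgeR adjusted p = 0.189). For 8 of the 16 genes every KO line was above every WT line, as for 9.59% of all tested genes. The number at an unadjusted p under 0.05 was 1 with the lane in the model and 2 with voom or without KO line 72, WT line 36 or WT line 78.

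Regulators of glycolysis and targets of hypoxia-inducible factors leaned the other way by sign, but in sum only KO line 72 was below the WT range. Of 19 listed, 18 were tested, and 14 of these were negative and 4 positive, with a median log2 fold change of -0.10. Of all tested genes, 51.5% were positive, and 8.77% were lower at an unadjusted p under 0.05. The 19 genes together were at 1310.5, 1219.5 and 1337 CPM in WT lines 36, 47 and 78. In KO lines 33, 41 and 72 they were at 1285, 1238.5 and 1052 CPM. Car9, a carbonic anhydrase and a sensitive hypoxia target, was the 1 gene at an unadjusted p under 0.05, with 1.86, 1.74 and 1.41 CPM in WT and 0.92, 0.96 and 1.21 CPM in KO (log2 fold change -0.70, SE 0.23, edgeR adjusted p = 0.260). Epas1, which encodes HIF-2α, was at 32.4, 24.3 and 17.8 CPM in WT and 13.1, 10.8 and 20.6 CPM in KO (log2 fold change -0.74, SE 0.31, unadjusted p of 0.0503, edgeR adjusted p = 0.341). Hif1a and Myc, whose products activate many of the members, had log2 fold changes of -0.05 and 0.10. The difference between these lists and the members was not tested.

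**Figure D5:**
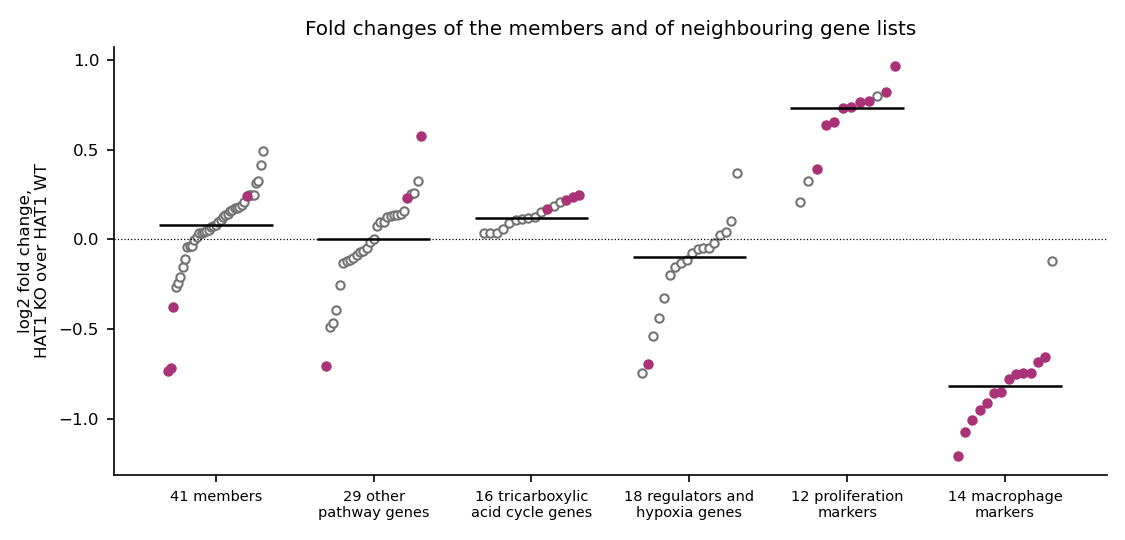
Log2 fold change of HAT1 KO over HAT1 WT for each tested gene of 6 lists, sorted within its list, with the median as a line and filled points for an unadjusted p under 0.05 in edgeR. The members centre on 0.08 and the 16 tricarboxylic acid cycle genes on 0.12 with none below 0, whereas the proliferation markers centre on 0.73 and the macrophage markers on -0.82.

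The direction was set against lane and against Y-linked expression, since both were uneven between the genotypes. Within lane 6 (2 KO lines and 1 WT line), 73.2% of the members were higher in KO, against 52.7% of all tested genes. Within lane 7 (1 line of each genotype), 75.6% of the members were higher, against 48.4% of all tested genes. Higher in both lanes were 26 of the 41 members, or 63.4%, against 30.8% of all tested genes. Lane 8 held WT line 36 alone, so the split left out the WT line with the highest sum of the 16 enzymes (6135 CPM). The WT line of lane 7, WT line 78, had the lowest sum (5163 CPM). In the full fit, 32 members were positive without WT line 36 and 25 without WT line 78. The within-lane shares thus depend on which WT line is left, and do not separate direction from lane. Against WT line 78, the 1 WT line with few Y-linked counts, the log2 difference of the KO mean was -0.94 for Hk3, -0.61 for Aldoc, -0.40 for Pfkfb4 and 0.37 for Ldha. In these genes every KO line lay on the same side of every WT line. Their signs against any single WT line were therefore fixed in advance, and only the sizes are informative. WT line 78 was outside the range of the other 5 lines for 20 members (48.8%, against 40.4% of all tested genes), KO line 33 for 20 members (48.8%, against 37.7%) and KO line 72 for 21 members (51.2%, against 51.5%). Pfkfb1, Pgk1, Pdk3, Pdha1 and G6pdx are on the X chromosome.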

How the data were processed

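RNA-seq of 6 pMEF lines (3 HAT1 WT, 3 HAT1 KO, grouped by the labelled genotype) was analysed from 1 table of raw read counts per gene that the authors deposited without normalization. The submitters' processing notes name edgeR and the build mm10. The aligner, the counter and its use of strand are not given in the sources used here, and the library kit did not mark strand. The deposited table also held the authors' own comparison (a log2 fold change, a log2 mean CPM, an F value, a p-value and a q-value per gene), which was not used. All value columns matched a sample (0 were left over), and no pair of libraries was identical. Among counts of 1 to 10, 75.1% were even, against 55.0% of counts of 101 to 1000.

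Genes were compared between genotypes in R 4.3.3 with edgeR 4.0.16 (filterByExpr defaults, TMM scaling, glmQLFit and glmQLFTest on genotype, two-sided), with Benjamini-Hochberg adjustment over 14773 genes. The SE was approximated from the fold change and the F statistic of the same gene. CPM values are TMM-scaled. Length-scaled levels are CPM per kilobase of merged exons in GENCODE M21 (GRCm38), to which all 17512 identifiers matched. Totals of 67720628 to 98786746 counts make counting error small for most members, so the spread between lines sets the precision. The labels do not say whether lines came from separate litters. P-values measure the spread between these lines only.

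The members and the gene lists were chosen with earlier results of these data known. Described in full were Hat1, each member with an unadjusted p under 0.05, and in each of 10 role groups the member with the highest length-scaled level and the one with the smallest p. Of the other lists, genes at an adjusted p under 0.05 or otherwise those with the smallest p were named. The fit was tested on simulated data. Alternatives were DESeq2 1.42.0 size factors and its Wald test, library size alone, limma 3.58.1 voom with sample quality weights, no filter, a mean of at least 50 counts, lane in the model, each line left out, raw counts for the isozyme shares, and, chosen after seeing the data, a term for Y-linked expression and halved counts.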

Additional observations from a re-analysis of the deposited data

How the results depend on the processing

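No paired analysis was possible because the genotypes share no line number. Over 15 alternatives, the median log2 fold change of the members stayed between 0.04 and 0.16, and 25 to 32 of the 41 were positive. Hk3 and Pfkfb4 kept an unadjusted p under 0.05 in all 15, Aldoc in 13 (not with the lane, log2 fold change -0.69, unadjusted p of 0.0528, or with Y-linked expression, -0.59, unadjusted p of 0.0756) and Ldha in 10. Members at an adjusted p under 0.05 numbered 3 (Hk3, Aldoc and Pfkfb4) with the DESeq2 Wald test, which called 871 of all genes (5.90%), and 0 otherwise. Members higher at an unadjusted p under 0.05 numbered 1 with edgeR, 2 with DESeq2, 2 without a filter and 7 with Y-linked expression. When 1 line was left out they numbered 0 to 4 (0 without WT line 47, WT line 78 or KO line 33, 4 without WT line 36 or KO line 72, and 2 without KO line 41). Of all tested genes, 5.88% were higher at that threshold with edgeR, 7.49% with DESeq2, 6.13% without a filter and 5.44% with Y-linked expression. This share was 3.02% without WT line 36, 9.06% without KO line 72 and lay between these for the other lines. With the 1.5-fold threshold, the lower members numbered 1 with the lane, 1 with Y-linked expression and 1 to 2 when a line was left out (1 without KO line 72), and the higher members 0 to 1 (1, Slc2a3, without KO line 41). Hat1 kept its direction in all 15, but its adjusted p was 0.529 with the lane (log2 fold change -1.10), 0.254 with Y-linked expression (-0.98) and 0.0587 to 0.230 when a line was left out (-1.08 to -0.87). Hypoxia-list genes at an unadjusted p under 0.05 numbered 3 with DESeq2, 2 with library size alone, 2 without a filter, 2 with voom, 0 with the lane and 0 to 2 when a line was left out. Tricarboxylic acid cycle genes at that threshold numbered 1 with the lane, 2 with voom and 2 to 3 when a line was left out, and other pathway genes 3 to 5 when a line was left out (5 without KO line 72). Of 615 fold changes of members under alternatives, 21 crossed to an unadjusted p under 0.05, 7 crossed back and none with such a p turned sign. Genes with an unadjusted p at or above 0.05 did turn, in 16 members. The cause of these shifts was not tested. By raw counts in place of length-scaled levels, Hk1 made up 55.2% (from 41.6%) of the hexokinases and Pfkm 20.9% (from 38.4%) of the phosphofructokinases in HAT1 WT. Few counts limit Pfkfb1 and Aldoc most.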
